A study of Arabidopsis thaliana with 6 samples.

Results

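Soluble legume-type lectins are proteins with the sugar-binding fold first described in legume seeds, here without an attached kinase. A total of 6 Arabidopsis thaliana loci of this kind were chosen by locus, because the transcript of AT5G03350 was among the largest increases after salicylic acid (SA) and the other 5 encode proteins of the same type. Of these 6 loci, 5 were measured, among 13286 measured genes: AT5G03350, AT3G16530, AT1G53060, AT1G53070 and AT1G53080. Each had a single probe set, and each probe set was assigned to 1 gene. AT3G15356 was not analysed here, because the annotation used lists no probe set for it.

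The SA group was leaf tissue of plants aged 3 to 4 weeks, collected 2 hours after a spray that held 1 mM SA and 0.01% Silwet, a wetting agent. The mock group was leaf tissue of plants of the same age, collected 2 hours after a spray of Silwet alone at 0.01%. Each group had 3 biological replicates on 1 Affymetrix ATH1 array each, and values are log2 signals made by the authors with RMA. The labels give neither the accession of the plants nor a genotype. The comparison asks how spraying with SA changes transcript levels in the leaf at this time.

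Lectins bind sugars reversibly without altering them. In plants many lectins occur at the cell surface or in the cell wall, where sugars of the plant's own wall, of fungal walls and of bacterial surfaces are found. SA is a hormone of defence against pathogens that feed on living cells, and much of its transcriptional output runs through the co-activator NPR1 and TGA transcription factors. AT5G03350 is known as SAI-LLP1, for salicylic acid-induced legume lectin-like protein, and AT3G16530 has been described as a lectin gene induced by chitin fragments. For the tandem loci AT1G53060, AT1G53070 and AT1G53080, which follow each other on chromosome 1 with no annotated locus between them, no role is stated here.

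AT5G03350, on chromosome 5, was the member with the largest difference between treatments. Its log2 signals were 13.85, 13.92 and 13.73 in SA replicates 1, 2 and 3, against 11.00, 10.54 and 11.56 in mock replicates 1, 2 and 3. The lowest SA value lay 2.17 log2 units above the highest mock value, so the groups were far apart. The means were 13.83 ± 0.10 in SA leaves and 11.03 ± 0.51 in mock leaves (SD, n = 3 each). The difference was 2.80 log2 units with a standard error of 0.25, which is 6.96-fold, and it was the eighth largest positive difference among the 13286 genes. This difference chose the gene, so no test of it is given. In whole leaves, a difference in the number of cells that carry a transcript and a difference in its amount per cell cannot be told apart.

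The replicates of AT5G03350 were unequally spread between the treatments. SA values spanned 0.19 log2 units and mock values 1.02, so the mock SD was 5.29 times the SA SD. A larger ratio of mock SD to SA SD was seen in 3.24% of all genes. The highest value of any probe set was 14.48, 14.48 and 14.00 on SA arrays 1, 2 and 3, so AT5G03350 lay close to the upper end of the measured range there. Whether signals near that end are compressed was not tested. Within a replicate number, SA minus mock was 2.84, 3.38 and 2.17 log2 units for numbers 1, 2 and 3. These differences contain the mock values, which varied more than the SA values, so they were largest for number 2, where mock was lowest.

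**Figure D1:**
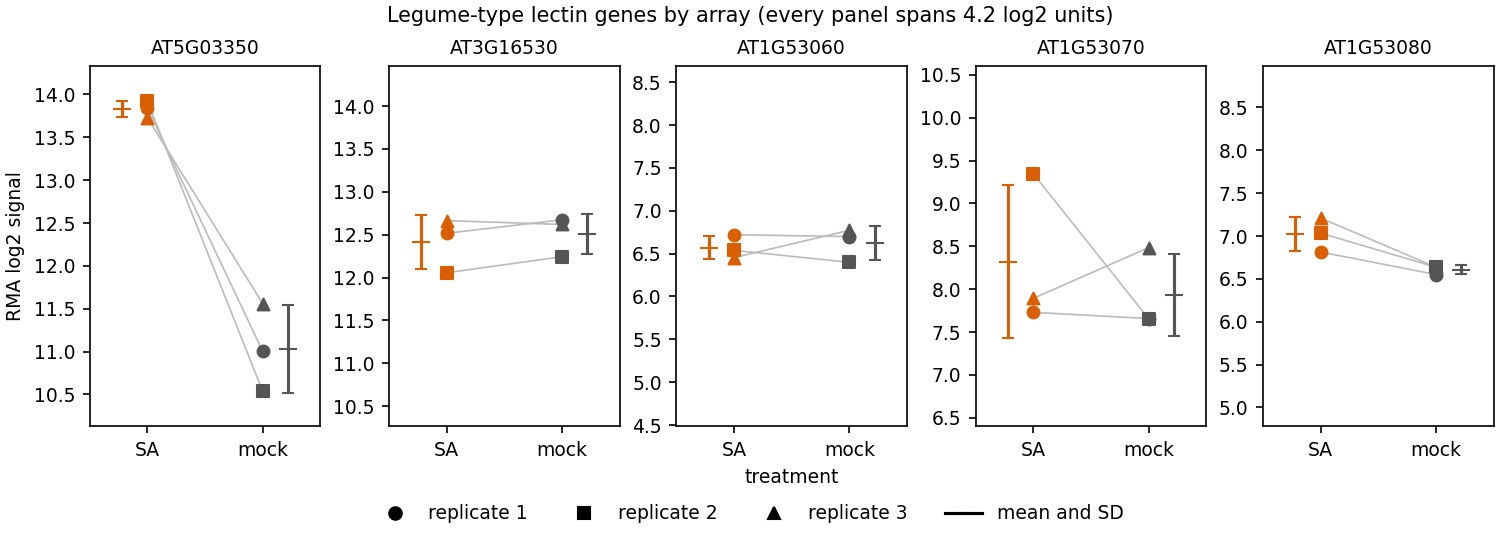
RMA log2 signal of the 5 measured legume-type lectin genes on each array, SA left of mock, with a symbol for each replicate number, grey lines joining arrays of the same number, and the mean and SD of 3 arrays beside the points. Panels differ in their position on the y axis but have the same span. AT5G03350 has SA values near 13.8 and mock values between 10.5 and 11.6, AT1G53080 separates the groups by a narrow gap, and the other 3 genes overlap.

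AT3G16530, on chromosome 3, did not show a difference that the test could separate from replicate spread. Its log2 signals were 12.52, 12.06 and 12.66 in SA replicates 1, 2 and 3, against 12.67, 12.24 and 12.62 in mock replicates 1, 2 and 3. The groups overlapped almost completely, and replicate 2 was the lowest in both treatments. The means were 12.41 ± 0.32 in SA leaves and 12.51 ± 0.23 in mock leaves (SD, n = 3 each). The change was -0.10 log2 units, with a 95% interval from -0.58 to 0.38 (limma adjusted p = 0.938). As a ratio of SA to mock this interval runs from 0.670 to 1.30, so a change of 2-fold either way lies outside it. With the replicate number as a block the interval narrowed to -0.33 to 0.13, and the gene was again not called (adjusted p = 0.604).

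Of the tandem genes on chromosome 1, AT1G53080 was the one whose groups did not overlap. It had log2 signals of 6.81, 7.03 and 7.21 in SA replicates 1, 2 and 3, against 6.55, 6.64 and 6.64 in mock replicates 1, 2 and 3. The lowest SA value exceeded the highest mock value by 0.18 log2 units. The means were 7.02 ± 0.20 in SA leaves and 6.61 ± 0.05 in mock leaves (SD, n = 3 each). Its change was 0.41 log2 units, or 1.33-fold, with a 95% interval from 0.11 to 0.71 that was not adjusted for the number of genes. The gene did not pass the test over all genes without the block (limma adjusted p = 0.20) or with it (adjusted p = 0.0610). Within numbers 1, 2 and 3 the differences were 0.26, 0.40 and 0.57 log2 units, all above 0. Over all genes, SA lay above mock in all 3 numbers in 20.4%, and above mock without overlap in 8.57%.

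AT1G53070 was the most variable member. Its log2 signals were 7.73, 9.35 and 7.89 in SA replicates 1, 2 and 3, against 7.66, 7.66 and 8.49 in mock replicates 1, 2 and 3. SA replicate 2 and mock replicate 3 stood above the other arrays, and the groups overlapped. The change was 0.39 ± 0.47 log2 units (standard error), with a 95% interval from -0.75 to 1.53 (limma adjusted p = 0.863). This interval allows a rise of up to 2.89-fold and a ratio of SA to mock as low as 0.594. The value depended on SA replicate 2, and without that array the change was -0.12 log2 units. The SD within groups was 0.71 log2 units, larger than in 97.7% of all genes, where the median was 0.18.

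AT1G53060 gave nearly the same values in both treatments. Its log2 signals were 6.72, 6.54 and 6.45 in SA replicates 1, 2 and 3, against 6.70, 6.40 and 6.77 in mock replicates 1, 2 and 3. The mock values enclosed all of the SA values. Its change was -0.05 log2 units, with a 95% interval from -0.38 to 0.28 (limma adjusted p = 0.957), and the sign turned to positive when arrays were centred on their medians. As a ratio of SA to mock the interval runs from 0.768 to 1.21. All values of this gene, like those of AT1G53080, lay below the array medians over all probe sets (7.41 to 7.51). Whether their signals are too weak to show a change in full was not tested.

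The ratio between tandem genes was also compared within each array, which removes any shift shared by the array. The log2 signal of AT1G53080 minus that of AT1G53060 was 0.09, 0.50 and 0.76 on SA arrays 1, 2 and 3, against -0.15, 0.24 and -0.14 on mock arrays 1, 2 and 3. The SA and mock values overlapped, because SA 1 lay below mock 2. The changes of this pair differed by 0.46 log2 units (exact permutation test, two-sided p = 0.20, adjusted p = 0.60 over the 3 pairs of tandem genes). For AT1G53070 against AT1G53060 the changes differed by 0.44 (exact p = 0.60, adjusted p = 0.90), and for AT1G53080 against AT1G53070 by 0.02 (exact p = 1, adjusted p = 1). With 3 arrays against 3 the exact test cannot give a p below 0.10, so none of these comparisons could pass.

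**Figure D2:**
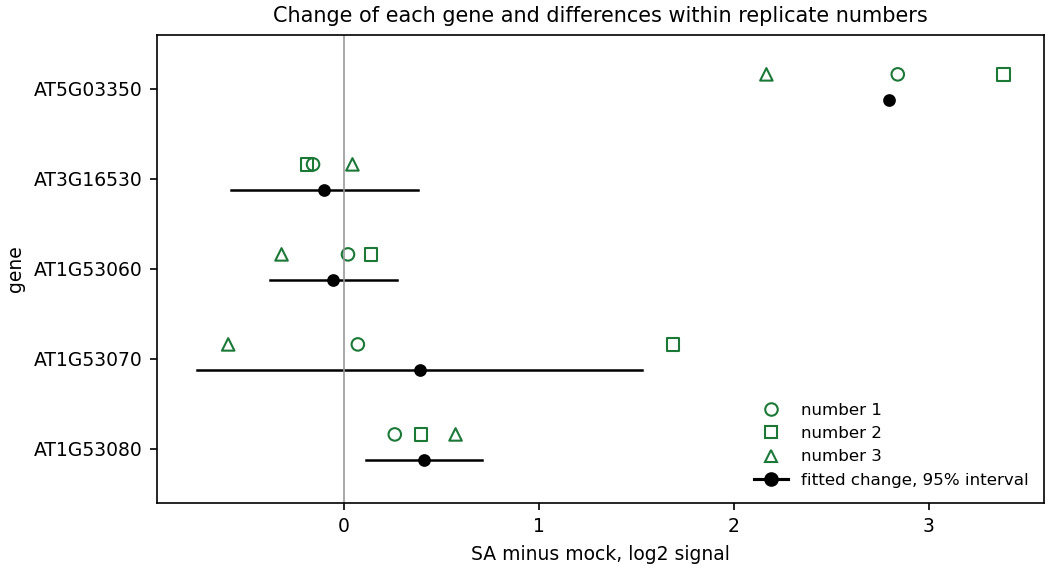
SA minus mock in log2 units for each gene (x axis), with open symbols for the differences within replicate numbers 1, 2 and 3, and a black point for the change over all arrays with its 95% limma interval. No interval is drawn for AT5G03350, which was chosen for this difference. Its 3 differences lie between 2.17 and 3.38, those of AT1G53080 between 0.26 and 0.57, and those of AT3G16530, AT1G53060 and AT1G53070 fall on both sides of 0.

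Set side by side, the 5 genes had changes of 2.80, 0.41, 0.39, -0.05 and -0.10 log2 units in AT5G03350, AT1G53080, AT1G53070, AT1G53060 and AT3G16530. The median of the 4 genes other than AT5G03350 was 0.17, beside a median of -0.01 over all genes; with AT5G03350, which was chosen for its change, the median was 0.39. The share of all 13286 genes that passed limma's test was 1.63% (1.04% as rises), and 9.91% (5.15% as rises) once the replicate number was a block. AT5G03350 was chosen among such calls, and its own call says nothing about the family. Of the other 4 members limma called 0, with or without the block, and 1 of them, AT1G53080, had an unadjusted p under 0.05, as had 13.8% of all genes.

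The genes with a profile most like that of AT5G03350 were found by the root mean square distance between log2 profiles over the 6 arrays, after each gene's own mean was taken off. Since the profile of AT5G03350 is dominated by the difference between treatments, such genes also differ between treatments by construction. The nearest 5 were AT3G51350, an aspartyl protease gene, AT3G62780, GRX480 (AT1G28480), a glutaredoxin gene whose product interacts with TGA factors, AT5G12340, and AT5G52810, known as SARD4 and acting in pipecolic acid synthesis. Their distances were 0.356, 0.356, 0.356, 0.379 and 0.384 log2 units. Their differences between SA and mock were 2.24, 2.35, 3.43, 2.48 and 2.60 log2 units. Mock replicate 2 was the lowest of all arrays in each of these 5 genes, as it was in AT5G03350. The choice by distance over these same arrays favours this likeness.

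GRX480 came closest to AT5G03350 in the spread of its replicates. Its log2 signals were 11.86, 11.73 and 11.95 in SA replicates 1, 2 and 3, against 8.62, 7.82 and 8.82 in mock replicates 1, 2 and 3. The SDs were 0.12 in SA leaves and 0.53 in mock leaves (n = 3 each). AT5G52810 had SDs of 0.12 in SA leaves and 0.70 in mock leaves, whereas AT3G51350 had SDs of 0.11 in SA leaves and 0.15 in mock leaves. UGT76B1 (AT3G11340), a glucosyltransferase acting on SA, had log2 signals of 12.49, 12.51 and 12.93 in SA replicates 1, 2 and 3, against 6.94, 5.54 and 6.16 in mock replicates 1, 2 and 3. It was lowest in mock replicate 2 as well, but highest in SA replicate 3, where AT5G03350 had its lowest SA value.

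**Figure D3:**
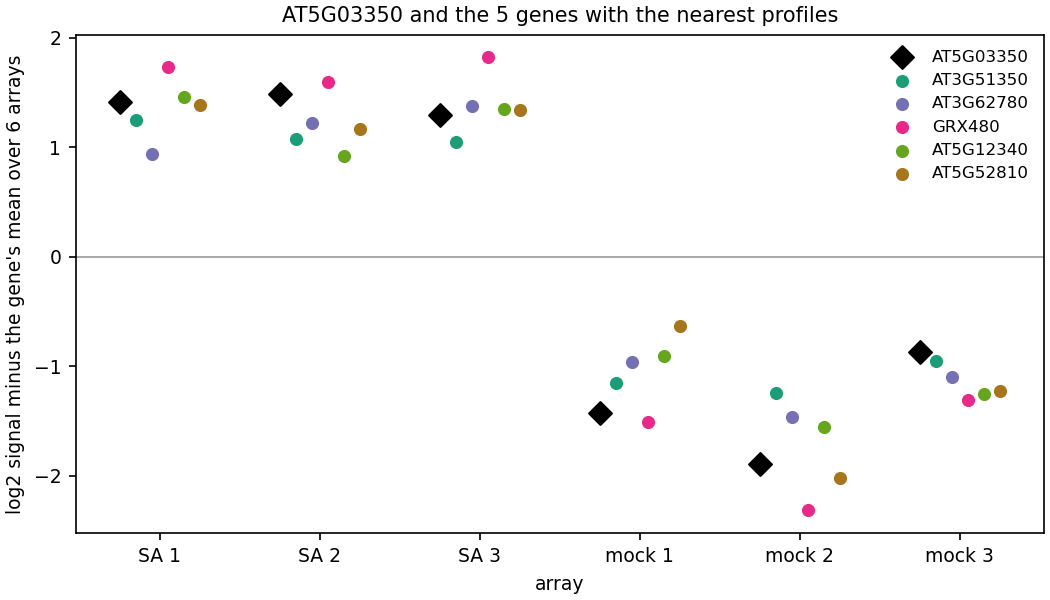
Log2 signal minus the gene's mean over 6 arrays (y axis) on each array (x axis) for AT5G03350 (black diamonds) and the 5 genes at the smallest distance from it (coloured circles). All 6 genes lie above their mean on SA arrays and below it on mock arrays, and each is lowest in mock replicate 2.

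The other members had other neighbours in profile, whose likeness to the member over the arrays is again set by the choice. Nearest to AT3G16530 were LPA2 (AT5G51545), a gene of photosystem II accumulation, AT1G49380 and AT4G00750, at distances of 0.061, 0.069 and 0.072 log2 units. All 3 had their lowest value in SA replicate 2, as AT3G16530 had. Nearest to AT1G53070 were AT1G06000, which encodes a flavonol rhamnosyltransferase, TUB1 (AT1G75780), a beta-tubulin gene, and AT3G02120, at distances of 0.139, 0.152 and 0.187. TUB1 showed the same high array as AT1G53070, with log2 signals of 6.84, 8.42 and 7.26 in SA replicates 1, 2 and 3, against 7.07, 6.83 and 7.48 in mock replicates 1, 2 and 3. AT1G53060 lay nearest to AT3G45320, AT5G11940 and AT5G26270, and AT1G53080 to AT2G21160, AT1G78620 and AT1G03590.

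The nearest measured genes on either side of the members, not all of them adjacent, did not share the difference of AT5G03350. AT5G03345, the locus directly before it, had log2 signals of 9.98, 10.26 and 10.05 in SA replicates 1, 2 and 3, against 10.54, 10.54 and 10.69 in mock replicates 1, 2 and 3. Its change was -0.49 ± 0.11 log2 units (standard error), opposite in sign to that of AT5G03350. AT5G03345 passed the test only with the replicate block (limma adjusted p = 0.105 without and 0.0453 with it), where 9.91% of all genes were called. AT5G03360, the next measured gene on the other side with 2 loci between, changed by 0.09 log2 units (adjusted p = 0.894). Its log2 signals, 4.70 to 5.06 over all arrays, lay far below the array medians (7.41 to 7.51). Whether they are too weak to show a change was not tested. Around AT3G16530, UGT88A1 (AT3G16520), a glycosyltransferase gene, and AT3G16560 had changes of -0.32 and -0.42 log2 units (adjusted p = 0.421 and 0.261). Between them and AT3G16530 lay 1 and 4 loci. At the tandem locus, AT1G53050 directly on one side had a change of 0.004 log2 units (adjusted p = 0.996). AT1G53100 on the other side, with 1 locus between, had a change of 0.07 log2 units (adjusted p = 0.957). Around the unmeasured AT3G15356, AT3G15350 and AT3G15351 had changes of -0.39 and -0.32 log2 units (adjusted p = 0.145 and 0.320). AT3G15350, with 2 loci between it and AT3G15356, passed with the block (adjusted p = 0.0423), where 9.91% of all genes were called.

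Among other lectin families, jacalin-related lectins, a family with a different sugar-binding fold, had 15 of 32 listed genes measured. In the fit without the block, 0 of these 15 passed limma's test, beside 1.63% of all genes. The unadjusted p was under 0.05 for 2 of them, and for 13.8% of all genes. In the fit with the block 2 rose and 0 fell, beside the 5.15% of all genes that rose there. The median change of the 15 was 0.07 log2 units, beside -0.01 over all genes, the lowest being -1.30 and the highest 0.71. Of the 15, 10 lay above 0, and the share of all genes above 0 was not counted. The groups did not overlap in 2 of the 15, as in 18% of all genes. JAL22 (AT2G39310) had log2 signals of 5.33, 5.30 and 5.76 in SA replicates 1, 2 and 3, against 4.83, 4.69 and 4.74 in mock replicates 1, 2 and 3. Its groups did not overlap, and its change was 0.71 ± 0.14 log2 units (standard error; adjusted p = 0.0810 without the block and 0.0281 with it). JAL33 (AT3G16450), which lies near AT3G16530, had values of 6.78, 6.51 and 6.89 in SA replicates 1, 2 and 3, against 6.42, 6.17 and 6.39 in mock replicates 1, 2 and 3. Its change was 0.40 ± 0.14 log2 units (adjusted p = 0.259 without the block and 0.0472 with it).

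The lowest change of that family belonged to AT1G52000, at -1.30 ± 0.64 log2 units (standard error). It did not pass limma's test without the block (adjusted p = 0.466) or with it (adjusted p = 0.0868). Within numbers 1, 2 and 3 its differences were -1.37, -0.31 and -2.23 log2 units. The share of all genes below 0 in all 3 numbers was not counted. Its log2 signals were 8.40, 10.15 and 7.55 in SA replicates 1, 2 and 3, against 9.77, 10.45 and 9.77 in mock replicates 1, 2 and 3, so SA replicate 2 lay within the mock range. Without SA replicate 2 the change was -2.03 (adjusted p = 0.106), and without SA replicate 3 it was -0.73 (adjusted p = 0.769). EULS3 (AT2G39050), a Euonymus-type lectin and the only measured gene of 11 listed with GNA-type, Euonymus-type and LysM proteins, had a change of -0.20 ± 0.36 log2 units (adjusted p = 0.930). The 45 listed legume-type lectin receptor kinases carry the same lectin domain joined to a kinase. Of these and the 26 listed phloem lectins of the Nictaba type, 0 were matched to a probe set through the annotation used. They were not analysed here, and whether the array carries probes for them was not tested.

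**Figure D4:**
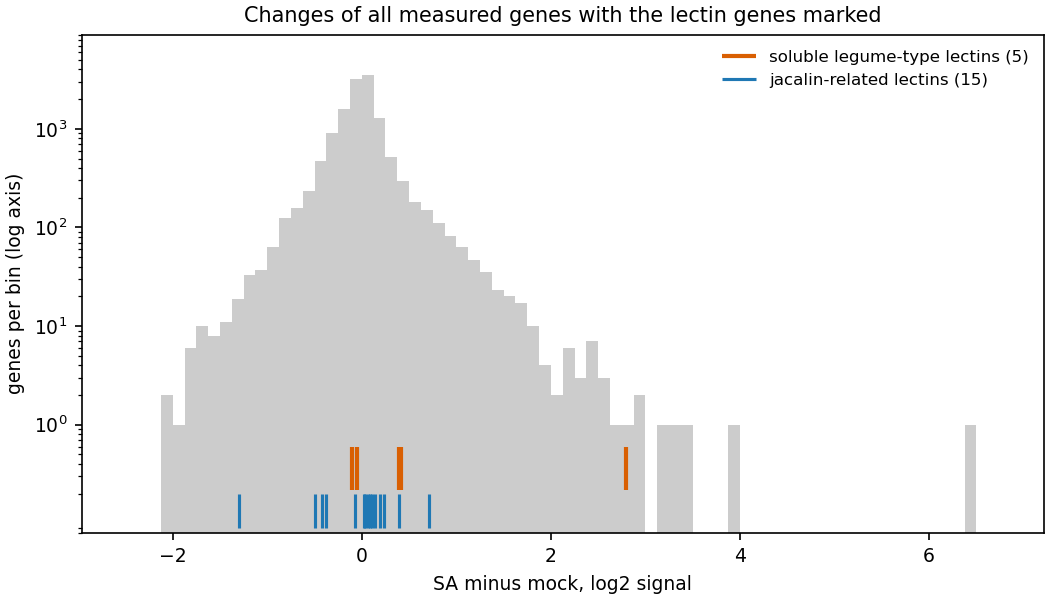
Histogram of SA minus mock in log2 units over 13286 genes in bins of equal width (y axis, genes per bin on a log scale), with ticks below for the 5 soluble legume-type lectins (orange) and the 15 jacalin-related lectins (blue). The tick of AT5G03350 stands at 2.80, and all other lectin ticks lie between -1.30 and 0.71.

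Of the listed genes of SA perception, which comprise the NPR, TGA and NIMIN families, 1 of 14 was measured. This was AT4G26120, known as NPR2, a relative of NPR1. It had log2 signals of 8.14, 7.25 and 7.16 in SA replicates 1, 2 and 3, against 7.50, 6.56 and 6.91 in mock replicates 1, 2 and 3. The groups overlapped, and its change of 0.53 ± 0.34 log2 units (standard error) did not pass the test without the block (limma adjusted p = 0.623) or with it (adjusted p = 0.0513). Without 1 array the change ran from 0.22 log2 units (without SA replicate 1) to 0.78 (without mock replicate 1). Within numbers 1, 2 and 3 the differences were 0.64, 0.69 and 0.25 log2 units, all above 0, as in 20.4% of all genes. Of 9 listed SA response genes 3 were measured. GRX480 and UGT76B1 were called as rises without the block, beside 1.04% of all genes. WRKY53 (AT4G23810), a defence transcription factor gene, had a change of 1.45 log2 units. It was called only with the block (limma adjusted p = 0.185 without and 0.0232 with it), where 5.15% of all genes rose. The list was chosen with earlier results of these data known, so its calls are not independent evidence.

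For the leaf label, 5 of 24 listed photosynthesis genes were measured. They averaged 13.18 to 13.37 log2 units on SA arrays and 13.40 to 13.47 on mock arrays. Their median change was -0.17 log2 units, and 1 of the 5 changes lay above 0. The groups did not overlap in 1 of them, LHCB4.2 (change -0.23), as in 18% of all genes. Of the 5, 0 passed limma's test, blocked or not, beside 9.91% and 1.63% of all genes. An unadjusted p below 0.05 was seen in 0 of them, beside 13.8% of all genes. The guard cell gene FMA and the trichome gene TRY had changes of -0.22 and -0.36 log2 units (adjusted p = 0.591 and 0.752), and listed markers of phloem and xylem, epidermis, root hairs, flowers and late senescence were not analysed here. A spike-in control probe set, AFFX-DapX-3_at, read 11.42 and 11.52 on the SA and mock arrays numbered 1 and between 8.27 and 8.44 on the other 4. Without both arrays numbered 1 the changes of AT5G03350, AT3G16530, AT1G53060, AT1G53070 and AT1G53080 were 2.78, -0.07, -0.09, 0.55 and 0.49 log2 units.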

How the data were processed

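Total RNA from leaves was extracted with phenol and chloroform and labelled as biotinylated cRNA, per the labels' protocols. The deposited log2 signals were made by the authors with RMA, per the submitters' processing notes; its version is not given in the sources used here. RMA aligns the distributions of arrays, so a shift common to most transcripts would be largely removed. Array medians were 7.41 to 7.46 in SA and 7.49 to 7.51 in mock arrays. Correlations between arrays were 0.959 to 0.986, and 0 pairs held identical values. Precision is limited by the number of arrays.

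Of 22810 probe sets, 64 controls were left out, and 13436 with 1 listed gene matched a locus of the RefSeq annotation of TAIR10.1. Of the 22746 without controls, 8730 were not listed in the probe annotation used and 503 were listed with several genes. A gene called unmeasured here lacks such a match, and the array may still carry probes for it. The probe set with the highest mean was kept per locus. SA minus mock was fitted over all 13286 genes with limma 3.58.1 in R 4.3.3 (lmFit and eBayes, treatment as the only term), with Benjamini-Hochberg adjustment over all genes and a threshold of 0.05. Intervals are 95% limma intervals for single genes. Scripts were tested on simulated data.

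Same-numbered arrays deviated together from their group means (r = 0.757, 0.479 and 0.559 over genes for numbers 1, 2 and 3, above the limit of 0.1), so the number was used as a block in an alternative fit; the labels do not state what a number marks. Named genes are all members, list members past the test with up to 3 more of smallest p, the 5 nearest profiles to AT5G03350 and 3 to each other member, and measured chromosomal neighbours. Members and lists were chosen with earlier results of these data known. Cross-hybridisation between members was not tested, and probe and gene sequences were not used here.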

Additional observations from a re-analysis of the deposited data

How the results depend on the processing

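Over 14 alternatives the change of AT5G03350 ran from 2.55 to 3.06 log2 units without 1 array and from 2.78 to 3.02 otherwise. This difference chose the gene, so these ranges describe the estimate and do not test it. Settings that alter only the error estimate or the set of genes leave each gene's change as it was. The change of AT1G53080 was above 0 in all 14, and ran from 0.32 to 0.51 without 1 array (adjusted p 0.135 to 0.476). Its adjusted p stayed above the threshold in all 14. The SA and mock values of AT1G53080 did not overlap, so leaving out arrays could not turn its sign. The fits with fewer arrays therefore do not test that sign. AT3G16530 ran from -0.23 to 0.08 without 1 array; its sign turned without SA replicate 2 (0.078). AT1G53070 ran from -0.12 to 0.69, turning without SA replicate 2 (-0.12), and reached 0.83 with array weights (adjusted p = 0.423). AT1G53060 ran from -0.16 to 0.02; its sign turned with arrays centred on their medians (0.0019), with array weights (0.013), without SA replicate 3 (0.0063) and without mock replicate 3 (0.022). None of the 4 tested members was called in any alternative, the lowest adjusted p being 0.0610 in AT1G53080 with the replicate block, and the cause of the sign changes was not tested.

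The number of genes called, 217, depended on the setting: 1316 with the replicate block, 135 with 32 linear units added, 334 over all probe sets and 479 with array weights. It was 5 to 57 without 1 array and 4 without both arrays numbered 1, a choice made after seeing the data; those fits have fewer arrays. The filter at a mean log2 signal of 6 kept all 5 members. JAL22, whose mean lay below that filter, had a change of 0.37 with 32 linear units added (adjusted p = 0.139), was called with array weights (adjusted p = 0.0483) and with the block, and was not called in the fits without 1 array (adjusted p 0.131 to 0.299). No member's locus had a second probe set to compare.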
